A study of Mus musculus with 16 samples.

Results

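The genes described are 8 subunits of cardiac potassium and sodium channels, namely Kcnv2, Kcnd2, Kcnip2, Kcna5, Kcnj2, Kcnj11, Abcc9 and Scn4b. They were chosen by name, with earlier results of these data known. Their probes were found by the gene symbol in the array's annotation. Of the 8 genes, 7 had a probe, with 11 probes among the 25697 of the table used. Kcnj11 had none there and was not analysed here. All 11 probes passed the filter on dim probes, and the 7 genes were among 9118 genes tested.

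RNA from the left ventricle of male C57BL6 mice was measured on 16 Illumina BeadChip arrays, with 4 arrays for each of 4 groups. Mice entered a group by random assignment at an age of 12 weeks. Control mice are labelled as receiving neither agent. The L-NAME group drank L-NAME, which blocks the enzymes that make nitric oxide, at 0.3 mg/ml together with 1% NaCl for 5 weeks. The AngII group received angiotensin II, a peptide hormone that constricts blood vessels, at 0.7 mg/kg/day for 4 weeks from a pump placed under the skin. The combination group received L-NAME with salt as well as AngII, the treatment with which the series induces non-ischemic heart failure. The labels do not say whether control or AngII mice drank salt, so effects of L-NAME and of salt cannot be told apart. The samples of a group are numbered 1 to 4 without a statement that they are 4 different animals. The p-values therefore reflect variation among samples that may be technical.

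The action potential of a heart muscle cell, or myocyte, ends when potassium leaves the cell and the membrane repolarises. In the mouse ventricle this is carried by voltage-gated potassium currents, among them a fast transient outward current and slower delayed currents, while inward rectifier channels hold the resting potential and ATP-sensitive potassium channels couple it to metabolism. Sodium channels carry the upstroke, and their beta subunits tune gating and placement in the membrane. Loss of outward potassium current and a longer action potential are well known in the failing heart.

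The deposited values are log2 levels whose median was 6.90 on each array. A level counted as background up to 7.13, the 95th percentile of 1359 probes for odour, taste and pheromone receptors. Each difference is a difference of log2 levels from a limma fit of the 4 group means over all 9118 genes, and a gene was called at a Benjamini-Hochberg adjusted p under 0.05. The number of arrays limits the precision. Combination array 4 stood apart, with a correlation of 0.950 with the mean of the rest of its group against 0.977 to 0.99 for the other arrays, so results that rest on it are also given without it.

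In the combination group 5 of the 7 measured channel genes were lower than in the control group. Kcnv2 was 3.07-fold lower, Scn4b 1.86-fold, Kcnj2 1.79-fold, Kcnd2 1.6-fold and Abcc9 1.55-fold. Among all genes tested, 2.84% were called lower and 5.79% were called in either direction. The combination arrays lay below every control array for the same 5 genes, as they did for 6.7% of all genes, and above every control array for none, against 5.93% of all genes. Kcnip2 and Kcna5 were not called. The median log2 difference of the 7 genes was -0.68, against -0.00488 over all genes. Because the 7 genes were chosen with earlier results of these data known, these shares and medians are a description and not an independent test. Without combination array 4 the median was -0.59 and 3 of the 7 genes were called, Kcnv2, Scn4b and Kcnd2, with 247 of all genes called lower. With all arrays 259 of all genes were called lower. The number of channel genes called was also 3 without control array 1, control array 2 or combination array 2 (107, 147 and 267 of all genes lower). It was 2 without control array 3 or combination array 1 (143 and 147 of all genes lower). A fit of only the 8 arrays of the combination and control groups called none of the 7, and 82 of all genes. Neither L-NAME nor AngII alone gave a call in any of the 7 genes.

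**Figure D1:**
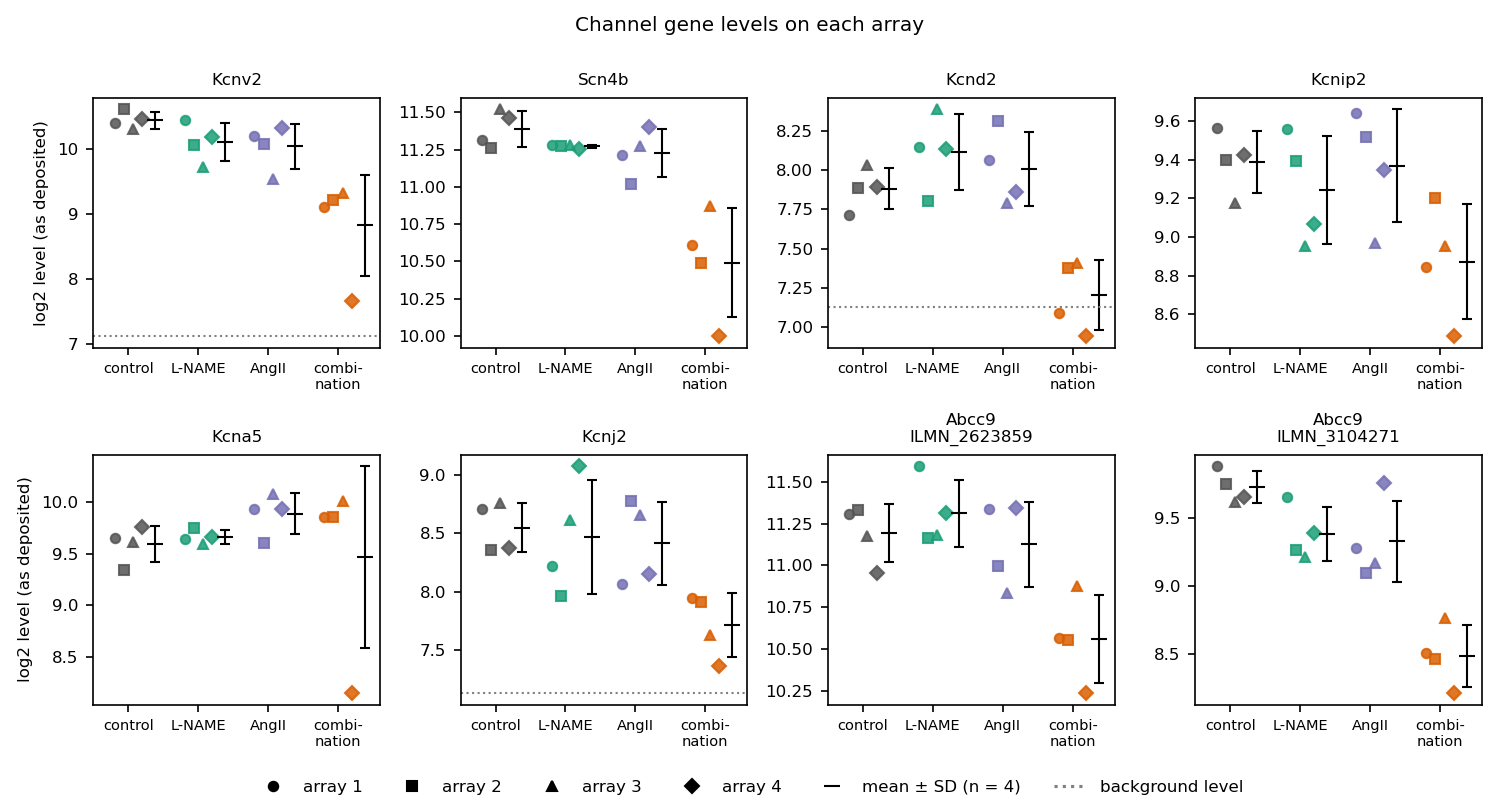
Log2 level (vertical axis, a separate range in each panel) of 7 channel genes on each of the 16 arrays, with 2 panels for Abcc9, 1 for each of its brighter probes. Each symbol is an array, the bars are the mean ± SD of 4 arrays and the dotted line is the background level of 7.13 where it lies in the range. The combination arrays lie below all other arrays for Kcnv2, Scn4b, Kcnd2 and Kcnj2, whereas for Kcna5 only combination array 4 lies low.

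Promoter sequence is shown for the 4 lower genes that the RefSeq promoter table lists, since these are genes whose levels fell in the same group. RefSeq's GRCm38.p6 table gave a window of 300 bases, from 250 before to 50 after the annotated start, for 6 of the 8 genes. Kcnv2 and Kcnj11 were not among them. The Kcnd2 window is chr6:21215096-21215395 on the plus strand, that of Kcnj2 chr11:111065914-111066213 on the plus strand, that of Abcc9 chr6:142702225-142702524 on the minus strand and that of Scn4b chr9:45138374-45138673 on the plus strand. The Abcc9 gene extends to base 142702766, so its window lies inside the gene, at a start that is not the outermost. Each window is printed 5′ to 3′ along the gene, with capitals at matches to the motifs searched.
Kcnd2: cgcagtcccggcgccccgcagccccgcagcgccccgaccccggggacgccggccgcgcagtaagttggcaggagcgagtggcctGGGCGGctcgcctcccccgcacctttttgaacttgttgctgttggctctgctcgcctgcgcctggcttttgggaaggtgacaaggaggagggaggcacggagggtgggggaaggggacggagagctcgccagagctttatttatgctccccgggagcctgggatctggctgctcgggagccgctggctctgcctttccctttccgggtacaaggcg
Kcnj2: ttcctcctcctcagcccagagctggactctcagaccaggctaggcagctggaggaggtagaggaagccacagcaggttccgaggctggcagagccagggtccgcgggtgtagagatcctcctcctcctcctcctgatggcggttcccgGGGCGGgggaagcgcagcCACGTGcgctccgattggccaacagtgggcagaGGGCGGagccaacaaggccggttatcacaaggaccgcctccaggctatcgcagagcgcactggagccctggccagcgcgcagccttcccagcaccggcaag
Abcc9: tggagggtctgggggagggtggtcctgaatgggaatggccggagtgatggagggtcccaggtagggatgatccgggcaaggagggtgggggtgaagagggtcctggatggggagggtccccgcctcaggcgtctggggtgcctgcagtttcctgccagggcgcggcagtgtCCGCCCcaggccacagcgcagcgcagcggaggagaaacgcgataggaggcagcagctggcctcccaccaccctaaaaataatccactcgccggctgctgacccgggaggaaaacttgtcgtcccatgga
Scn4b: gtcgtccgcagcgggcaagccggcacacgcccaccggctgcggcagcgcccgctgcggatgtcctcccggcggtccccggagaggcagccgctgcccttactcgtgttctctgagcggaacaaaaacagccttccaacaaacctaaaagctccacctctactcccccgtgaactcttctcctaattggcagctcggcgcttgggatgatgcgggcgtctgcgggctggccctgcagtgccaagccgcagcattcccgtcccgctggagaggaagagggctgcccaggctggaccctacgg
The 4 windows were rich in G and C, at 68.7%, 66.7%, 65.7% and 66.3% in that order, against a median of 52.7% over all promoters in the table.

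The motifs were searched on both strands as exact letters. They were the TATA box TATAAA, the GATA factor letters AGATAA, the E-box CACGTG, the T-box letters AGGTGT, the Iroquois letters ACANNTGT and the GC box GGGCGG. The capitals are 1 GC box in Kcnd2, whose first base lies 166 bases before the start (-166), 2 GC boxes and an E-box in Kcnj2 (at -102, -51 and -84) and 1 GC box on the reverse strand in Abcc9 (-79). Kcnip2, whose window is not printed, had GC boxes at -87 and -17. No matches shared bases. Scn4b and Kcna5 had no match. The GC box was in 4 of the 6 windows and in 35.7% of the 32851 promoters of the table, and the E-box in 1 of 6 and in 7.15%. The other letters were in none of the 6 windows and, over the table, in 13.6% (TATAAA), 11.2% (AGATAA), 13.7% (AGGTGT) and 7.38% (ACANNTGT).

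Kcnd2 encodes Kv4.2, a pore-forming subunit of the fast transient outward channel. The log2 level of Kcnd2 was 7.71, 7.89, 8.04 and 7.89 on control arrays 1 to 4, 8.15, 7.80, 8.39 and 8.13 on the L-NAME arrays, 8.07, 8.31, 7.79 and 7.86 on the AngII arrays and 7.09, 7.38, 7.41 and 6.94 on the combination arrays. The combination arrays were the lowest of all, with no overlap with any other group, and 2 of the 4 were below background. The means were highest with L-NAME, then AngII, then control, and these neighbouring groups overlapped. Combination was lower than control by a log2 difference of -0.68 ± 0.15 (SE, limma adjusted p = 0.0197), lower than L-NAME by -0.91 ± 0.15 (adjusted p = 0.00558) and lower than AngII by -0.80 ± 0.15 (adjusted p = 0.0277). On the arrays below background the level is only bounded, and with it the size of these differences. Without combination array 4 the difference from control was -0.59 (adjusted p = 0.0377). The call against control was lost without control array 3 (adjusted p = 0.0580) or combination array 1 (adjusted p = 0.0540), and over the 11 other settings tried its adjusted p lay between 0.00599 and 0.0671. The call against AngII was lost when combination array 1 was left out (adjusted p = 0.0742), without AngII array 1, 2 or 4 (0.0714, 0.0861 and 0.0558) and in a fit adjusted for the mean level of the atrial markers Sln, Myl4 and Myl7 (-0.84, adjusted p = 0.0857).

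Kcnip2 encodes KChIP2, a calcium-binding accessory subunit that Kv4 channels need for a full transient outward current. It had 3 probes, and the brightest, ILMN_3124037, read 9.57, 9.40, 9.17 and 9.42 (log2 level) on the control arrays, 9.56, 9.39, 8.95 and 9.07 with L-NAME, 9.64, 9.52, 8.97 and 9.35 with AngII and 8.84, 9.20, 8.95 and 8.49 in the combination group. The combination mean was the lowest, but combination array 2 lay within the range of the control arrays. The log2 difference from control was -0.52 ± 0.18 (SE, 95% interval -0.91 to -0.13, limma adjusted p = 0.107). With the replicate number as a block it passed (adjusted p = 0.0412), as it did with 2 sets of arrays as a factor (adjusted p = 0.0269). Over 11 other settings the adjusted p lay between 0.0269 and 0.172, and without combination array 4 the difference was -0.39 (adjusted p = 0.221).

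The other two Kcnip2 probes were dimmer and are annotated to another transcript than the brightest. ILMN_2680958 read 7.60, 7.32, 8.03 and 9.36 on the control arrays and 7.72, 7.33, 7.38 and 7.18 on the combination arrays. The highest value came from control array 4 alone. ILMN_2680959 read 7.97, 7.48, 7.09 and 7.45 on the control arrays and 7.90, 7.44, 7.06 and 6.48 on the combination arrays, so the groups overlapped. Tested as single probes they differed by -0.68 ± 0.32 (SE, adjusted p = 0.253) and -0.28 ± 0.43 (adjusted p = 0.766). None of the 3 probes was called, and the direction was negative in each.

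Kcnv2 encodes Kv8.2, a silent subunit that carries no current alone and changes the gating of the channels in which it assembles. It showed the greatest fall of the 7 genes. The log2 level of Kcnv2 was 10.39, 10.61, 10.31 and 10.46 on the control arrays, 10.44, 10.07, 9.73 and 10.18 with L-NAME, 10.20, 10.08, 9.54 and 10.33 with AngII and 9.10, 9.21, 9.33 and 7.66 in the combination group. All combination arrays lay below all others, and array 4 lay far below the other three. Control, L-NAME and AngII followed each other from high to low by mean, and their ranges overlapped. The log2 difference of the combination from control was -1.62 ± 0.30 (SE, limma adjusted p = 0.00672). Without combination array 4 it was -1.23, with a smaller error and an adjusted p of 0.00152. The call was kept in all 16 fits that left out an array (-1.78 to -1.23, adjusted p from 0.00152 to 0.0220) and in 10 of 11 other settings, and was lost in the fit of only the 8 arrays compared (adjusted p = 0.0647, the highest of a range from 0.000309).

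Against the single treatments Kcnv2 differed by -1.28 ± 0.30 from L-NAME (limma adjusted p = 0.0399) and by -1.21 ± 0.30 from AngII (adjusted p = 0.0706). The call against L-NAME was lost without control array 1, 2, 3 or 4 (adjusted p = 0.0559, 0.0562, 0.0515 and 0.0518) and without L-NAME array 1, 2, 3 or 4 (0.132, 0.0849, 0.0548 and 0.103). Further losses came without AngII array 1 or 2 (0.0552 and 0.0548) or combination array 1 (0.0591), and its adjusted p ran from 0.00258 to 0.189 over 11 other settings. The difference from AngII was called without combination array 4 (-0.82, adjusted p = 0.0430), with 2 sets of arrays as a factor (0.0403), with a trended and robust variance (0.0259) and with array weights (0.0110), in a range from 0.0110 to 0.336 over 11 settings. In each comparison the ranges did not overlap.

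Kcna5 encodes Kv1.5, a pore-forming subunit of a slow delayed potassium current in the mouse ventricle. On the log2 scale its level was 9.65, 9.35, 9.62 and 9.76 on the control arrays, 9.65, 9.76, 9.59 and 9.66 with L-NAME, 9.93, 9.61, 10.08 and 9.93 with AngII and 9.86, 9.86, 10.01 and 8.14 in the combination group. Combination arrays 1 to 3 lay above every control array and array 4 below every array of the study. The mean log2 difference from control was -0.12 ± 0.30 (SE, 95% interval -0.76 to 0.52, limma adjusted p = 0.856), and without array 4 its sign turned to 0.32 ± 0.12 (adjusted p = 0.145). No direction can be given for this gene, and no order of its group means either.

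Kcnj2 encodes Kir2.1, the main pore-forming subunit of the inward rectifier that sets the resting potential of ventricular myocytes. On the log2 scale its level was 8.71, 8.36, 8.76 and 8.37 on the control arrays, 8.22, 7.96, 8.62 and 9.08 with L-NAME, 8.07, 8.78, 8.66 and 8.15 with AngII and 7.94, 7.91, 7.63 and 7.36 in the combination group. The combination arrays were again below all others, though combination array 1 and L-NAME array 2 lay close together. The other three groups overlapped one another, and the L-NAME arrays spread most widely. The log2 difference of the combination from control was -0.84 ± 0.23 (SE, limma adjusted p = 0.0447). From L-NAME it was -0.76 ± 0.23 (adjusted p = 0.111) and from AngII -0.70 ± 0.23 (adjusted p = 0.161), neither called.

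The Kcnj2 call lay close to the threshold. It was lost without control array 1, 2, 3 or 4 (adjusted p = 0.113, 0.0670, 0.111 and 0.0698), without combination array 1, 2, 3 or 4 (0.0611, 0.0508, 0.0950 and 0.0936), without L-NAME array 1 or 3 (0.0555 and 0.0555) and without AngII array 1 (0.0503). With the replicate block its adjusted p was 0.0538, in a range from 0.0365 to 0.0990 over 11 settings. The difference itself stayed between -0.92 and -0.72 whichever array was left out.

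Abcc9 encodes SUR2, the regulatory subunit that gives ATP-sensitive potassium channels their response to nucleotides and drugs. In ventricular myocytes it surrounds a pore of Kir6.2, the product of Kcnj11. The brightest of its 3 probes, ILMN_2623859, read 11.31, 11.33, 11.17 and 10.95 (log2 level) on the control arrays, 11.60, 11.16, 11.18 and 11.31 with L-NAME, 11.34, 10.99, 10.83 and 11.34 with AngII and 10.56, 10.55, 10.88 and 10.23 in the combination group. The combination arrays lay below every control and L-NAME array, while combination array 3 lay just above AngII array 3. The log2 difference from control was -0.64 ± 0.16 (SE, limma adjusted p = 0.0320), from L-NAME -0.76 ± 0.16 (adjusted p = 0.0254) and from AngII -0.57 ± 0.16 (adjusted p = 0.102, not called, but 0.0473 with a trended and robust variance and 0.0412 with array weights). The call against control was lost when combination array 1, 2 or 4 was left out (adjusted p = 0.0642, 0.0509 and 0.0624) and without control array 1, 2 or 3 (0.0862, 0.0824 and 0.0658), with a range from 0.00728 to 0.102 over 11 other settings. The call against L-NAME was lost without L-NAME array 1 or 4 (0.0947 and 0.0720) or combination array 1 (0.0585), and with the atrial mean as a covariate (-0.84, adjusted p = 0.0738).

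A second Abcc9 probe, ILMN_3104271, annotated to another RefSeq transcript of the gene, showed a larger fall. Abcc9 is known to give splice variants that differ in the end of the protein, and the sources used here do not say which of them each probe reads. Its log2 level was 9.88, 9.75, 9.62 and 9.65 on the control arrays, 9.65, 9.26, 9.21 and 9.39 with L-NAME, 9.28, 9.10, 9.17 and 9.75 with AngII and 8.51, 8.46, 8.76 and 8.21 in the combination group. The combination arrays were below all others without overlap, and the single treatments lay between them and the control arrays while overlapping the latter. In a fit over single probes the log2 difference of the combination was -1.24 ± 0.16 from control (SE, limma adjusted p = 0.000544), -0.89 ± 0.16 from L-NAME (adjusted p = 0.00986) and -0.84 ± 0.16 from AngII (adjusted p = 0.0307). The call against control was kept in all 16 fits that left out an array (adjusted p from 0.000220 to 0.00362) and in all 11 other settings. The call against AngII was lost without L-NAME array 4 (0.0501), AngII array 1, 2 or 4 (0.0710, 0.0652 and 0.0937) or combination array 1 or 2 (0.0632 and 0.0526). The single treatments differed from control by -0.35 (L-NAME, adjusted p = 0.452) and -0.40 (AngII, adjusted p = 0.273), not called.

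The third Abcc9 probe, ILMN_1233056, was dim. It read 7.07, 7.17, 8.09 and 7.60 on the control arrays and 6.88, 6.67, 6.77 and 6.2 on the combination arrays, all 4 of which were below background. The control mean lay 1.28-fold above the background level, a point estimate of the least fall that carries no sampling error. Control array 1 was also below background. The difference from control was not called (measured means 7.48 and 6.63, limma adjusted p = 0.0692 in the fit over single probes).

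The levels of both brighter Abcc9 probes on the same array were then set against each other, a comparison chosen after the values were seen. The log2 level of ILMN_3104271 minus that of ILMN_2623859 was -1.43, -1.59, -1.56 and -1.30 on the control arrays, -1.94, -1.90, -1.97 and -1.92 with L-NAME, -2.06, -1.90, -1.66 and -1.59 with AngII and -2.05, -2.09, -2.11 and -2.02 in the combination group. Every treated array was lower than every control array, although AngII array 4 and control array 2 read the same to 2 decimals, and the L-NAME arrays varied little. The shift from control was -0.60 for the combination, -0.47 for L-NAME and -0.33 for AngII, and that from L-NAME to the combination was -0.13. Each of these 4 gave an exact two-sided permutation p of 0.0286, the smallest that 4 against 4 arrays allow, and 0.0429 after adjustment over 6 comparisons. Ranges without overlap always give that smallest value. The adjustment does not cover the choice of the probe pair after its values were seen, so these p-values are a description only. The combination and AngII overlapped (-0.27, exact permutation p = 0.0857, adjusted 0.103), as did AngII and L-NAME (0.13, exact permutation p = 0.314). Among 2276 genes with 2 probes above background, the same kind of difference did not overlap in 5.01% of genes for the combination against control, 3.73% for L-NAME, 3.65% for AngII and 3.87% for the combination against L-NAME. When same-numbered arrays were taken as pairs, the combination, L-NAME and AngII were each lower than control in all 4 pairs. Permuting within 4 pairs cannot give an exact p below 0.125, which was the value for each of the 4 shifts, so no call is possible in a paired test.

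**Figure D2:**
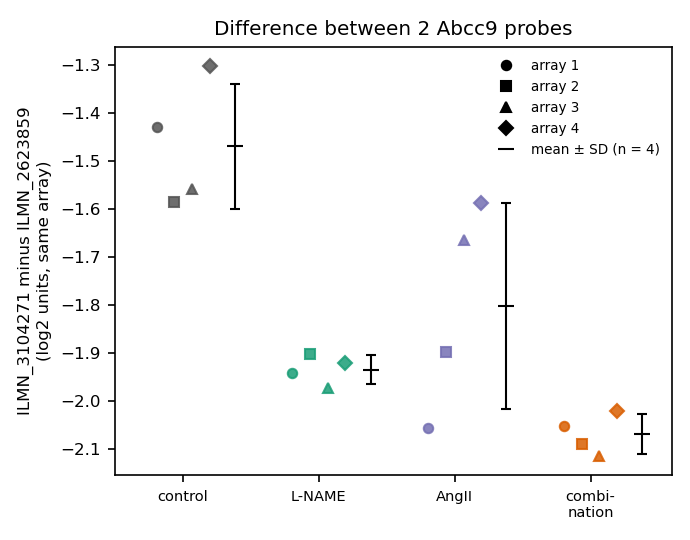
Difference of log2 levels between 2 Abcc9 probes on the same array (vertical axis, log2 units) by group, with 1 symbol per array and bars for the mean ± SD of 4 arrays. The L-NAME and combination arrays, at -1.90 or lower, lie below the control arrays, the highest AngII array touches the lowest control array at -1.59, and the combination mean is the lowest at -2.07.

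Scn4b encodes the beta-4 subunit of voltage-gated sodium channels, a membrane protein linked to the pore-forming subunit. Its log2 level was 11.31, 11.26, 11.52 and 11.46 on the control arrays, 11.28, 11.27, 11.28 and 11.25 with L-NAME, 11.22, 11.02, 11.28 and 11.40 with AngII and 10.61, 10.49, 10.87 and 9.998 in the combination group. The combination arrays lay below all other arrays, with the highest of them at 10.87 and the lowest other array, AngII array 2, at 11.02. Control, L-NAME and AngII overlapped, in that order from the highest mean. The log2 difference of the combination was -0.90 ± 0.15 from control (SE, limma adjusted p = 0.00387), -0.78 ± 0.15 from L-NAME (adjusted p = 0.0134) and -0.74 ± 0.15 from AngII (adjusted p = 0.0345). Without combination array 4 the difference from control was -0.73 (adjusted p = 0.00203). The call against control was kept whichever array was left out (adjusted p up to 0.0157) and lost only in the fit of the 8 arrays compared (adjusted p = 0.0644, the highest of a range from 0.000398 over 11 settings). The call against AngII was lost without L-NAME array 1 or 4 (0.0527 and 0.0530), AngII array 1, 2, 3 or 4 (0.0779, 0.0655, 0.0618 and 0.116) or combination array 1 or 2 (0.0617 and 0.0781). It was also lost with no filter on dim probes (0.0519) and with the atrial mean as a covariate (-0.98, adjusted p = 0.0583).

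The comparisons of the combination with each single treatment ask what the second agent adds. Against L-NAME, 4 of the 7 genes were called lower (Kcnv2, Kcnd2, Abcc9 and Scn4b), where 0.801% of all genes were. Against AngII, 2 were called lower (Kcnd2 and Scn4b), where 0.307% of all genes were. The combination arrays lay below all L-NAME arrays for 5 of the 7 genes (5.97% of all genes) and below all AngII arrays for 4 (4.32% of all genes). Without combination array 4, 4 genes were called against L-NAME and 3 against AngII, with 81 and 39 of all genes called lower. With all arrays these were 73 and 28 of all genes. The number against L-NAME was 2 when combination array 1 or L-NAME array 1 or 4 was left out (45, 31 and 30 of all genes lower). The number against AngII was 1 without L-NAME array 1 or 4, AngII array 3 or combination array 2 (20, 19, 31 and 22 of all genes lower). It was 0 without AngII array 1, 2 or 4 or combination array 1 (8, 7, 8 and 19). All comparisons of the combination share its 4 arrays, and their values are given side by side for that reason only.

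The single treatments gave no call. For L-NAME against control the log2 differences of the 7 genes ran from -0.34 (Kcnv2, 95% interval -0.97 to 0.29) to 0.24 (Kcnd2), with a median of -0.08. For AngII they ran from -0.40 (Kcnv2, 95% interval -1.04 to 0.23) to 0.30 (Kcna5), with a median of -0.07. By limma 0% of the 9118 genes were called in either comparison, although 1043 and 1314 genes had an unadjusted p under 0.05, none of them among the 7. For AngII the number of all genes called was 137 without combination array 4, 56 with the replicate block, 49 with 2 sets of arrays as a factor, 138 with a trended and robust variance and 177 with array weights. For L-NAME it was 41 with array weights. None of the 7 channel genes was among them under these settings. A missed threshold does not show that the levels were alike, since each interval covers a range of changes in both directions. AngII against L-NAME also gave 0 calls by limma, with 219 genes at an unadjusted p under 0.05 and none of the 7.

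The interaction, the combination minus L-NAME minus AngII plus control, asks whether both agents together differ from the sum of their single effects. It was negative in all 7 genes, with a median of -0.62 against -0.0144 over all genes. None was called, and 0% of the 9118 genes were by limma, with 1493 genes and 3 of the 7 at an unadjusted p under 0.05. Kcnd2 came nearest at -1.04 ± 0.22 (SE, limma adjusted p = 0.0650), followed by Abcc9 at -0.69 (adjusted p = 0.163) and Scn4b at -0.62 (adjusted p = 0.174). Kcnd2 was called with array weights (adjusted p = 0.00987) and with 2 sets of arrays as a factor (adjusted p = 0.0469), in a range up to 0.122 over 10 settings. Over all genes 179 and 80 were called under these 2 settings, against 156 with a trended and robust variance, 51 when combination array 4 was left out and 42 with the replicate block, none of them among the 7.

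**Figure D3:**
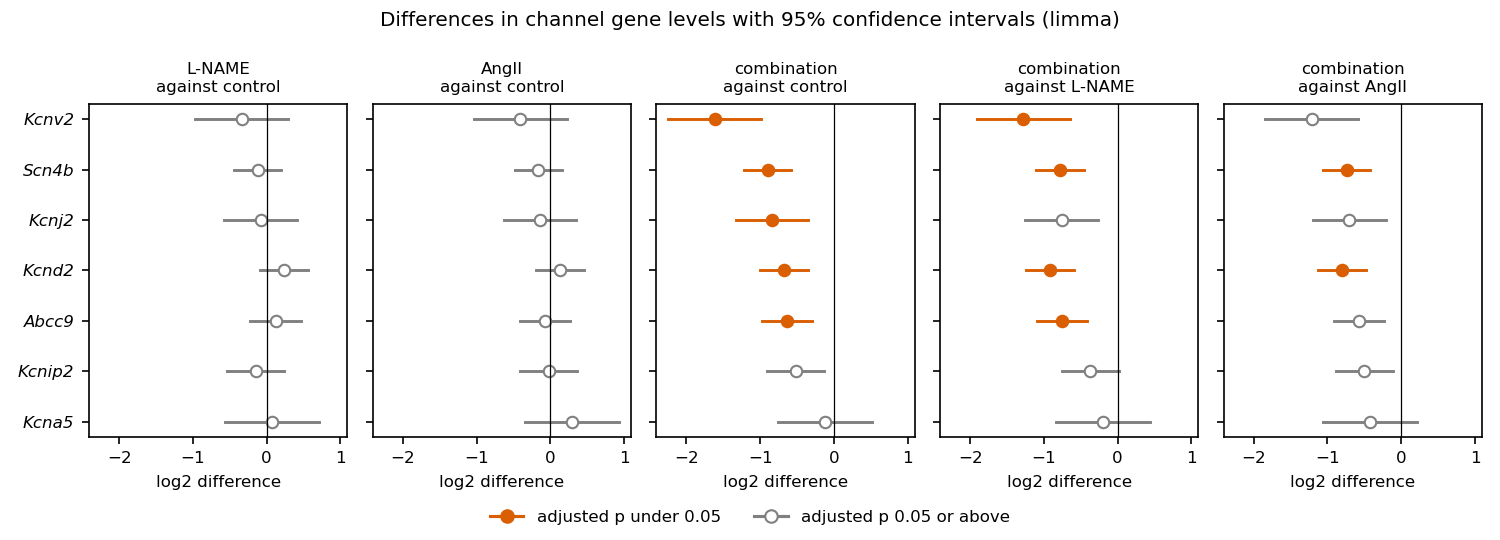
Log2 differences of the 7 channel genes (horizontal axes) with 95% confidence intervals from limma in 5 comparisons, 1 panel each, with filled points for an adjusted p under 0.05. Filled points lie to the left of zero, 5 of them for the combination against control, 4 against L-NAME and 2 against AngII, and there are none in the panels of the single treatments.

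Arrays numbered 1 and 2 and those numbered 3 and 4 formed 2 sets across the groups. Within the 2 sets the log2 difference of the combination from control was -1.35 and -1.89 for Kcnv2, -0.74 and -1.06 for Scn4b, -0.61 and -1.07 for Kcnj2, -0.56 and -0.79 for Kcnd2 and -0.76 and -0.51 for Abcc9. These 5 genes were lower in both sets, which their ranges without overlap between combination and control already require. Kcnip2 gave -0.46 and -0.58, whereas Kcna5 gave 0.36 and -0.61.

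Of 95 other channel and regulator genes on 4 lists, 80 had a probe and 51 were tested. These lists too were chosen with earlier results of these data known. In the combination group 1 of the 51 was called higher than in control, where 2.95% of all genes were. Of the 51, 0 were called lower, where 2.84% of all genes were. Their median log2 difference was -0.00353. By list the medians were -0.08 for 20 other potassium channel genes, 0.08 for 5 sodium channel genes, 0.07 for 10 genes of calcium channels, pacemaker channels, gap junctions and pumps, and 0.00207 for 16 regulators of channels. Against L-NAME, 1 of the 51 was called lower, where 0.801% of all genes were. With all 16 arrays no other call was made on these lists in the 7 comparisons. The median log2 difference of the 51 genes was 0.12 for L-NAME against control, 0.16 for AngII against control and -0.21 for the interaction, which was negative in 33 of them. Over all genes these medians were 0.0141, 0.00556 and -0.0144. Of the 16 regulators 2 were negative with L-NAME, with a median of 0.18, and 6 with AngII, likewise with a median of 0.18.

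The gene called higher was Kcne4, a small accessory subunit that restrains several voltage-gated potassium channels. Its log2 level was 7.78 ± 0.13 in control, 8.04 ± 0.47 with L-NAME, 8.01 ± 0.37 with AngII and 8.88 ± 0.51 in the combination group (SD, n = 4 arrays each), and the combination and control ranges did not overlap. The rise was 2.14-fold, a log2 difference of 1.1 ± 0.26 (SE, limma adjusted p = 0.0255). The call was lost when combination array 3 or 4 was left out (adjusted p = 0.0687 and 0.05001) and without control array 1, 2 or 4 (0.0581, 0.0523 and 0.0670), and the difference stayed between 0.92 and 1.28. It was also lost with the atrial mean as a covariate (1.06, adjusted p = 0.0548) and in the fit of only the arrays compared (0.0671). The gene called lower than in L-NAME was Ank3, which encodes ankyrin-G, a scaffold that anchors sodium channels. Its log2 level was 9.34 ± 0.23 in control, 9.87 ± 0.17 with L-NAME, 9.87 ± 0.25 with AngII and 9.24 ± 0.12 in the combination group. The log2 difference from L-NAME was -0.63 ± 0.14 (SE, limma adjusted p = 0.0382), and it was lost without control array 2 (0.0535), L-NAME array 1, 2, 3 or 4 (0.0710, 0.0591, 0.122 and 0.108), AngII array 2 (0.0512) or combination array 1, 2 or 3 (0.0841, 0.0751 and 0.0527), and with the atrial covariate (-0.59, adjusted p = 0.148). Its interaction was -1.16 (adjusted p = 0.0548), and without combination array 4 it was called (-1.18, adjusted p = 0.0390).

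Partners of the 7 genes were also read where they could be. Kcnj8, the pore of ATP-sensitive channels in vascular muscle, differed by -0.82 ± 0.33 between combination and control (limma adjusted p = 0.153), and by -0.34 without combination array 4 (adjusted p = 0.115). Kcnj12, which encodes the inward rectifier subunit Kir2.2, differed by -0.48 ± 0.17 (adjusted p = 0.102). Irx5, a repressor of Kcnd2 in the mouse heart, differed by 0.05 (adjusted p = 0.911), and Klf15, an activator of Kcnip2, by 0.36 (adjusted p = 0.471). Klf15 differed by 0.135 without combination array 4 (limma adjusted p = 0.814). Kcnd3 and Kcna4, pore-forming subunits of transient outward channels, and Cacna1c, the pore of the L-type calcium channel, were not above background on enough arrays to be tested.

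**Figure D4:**
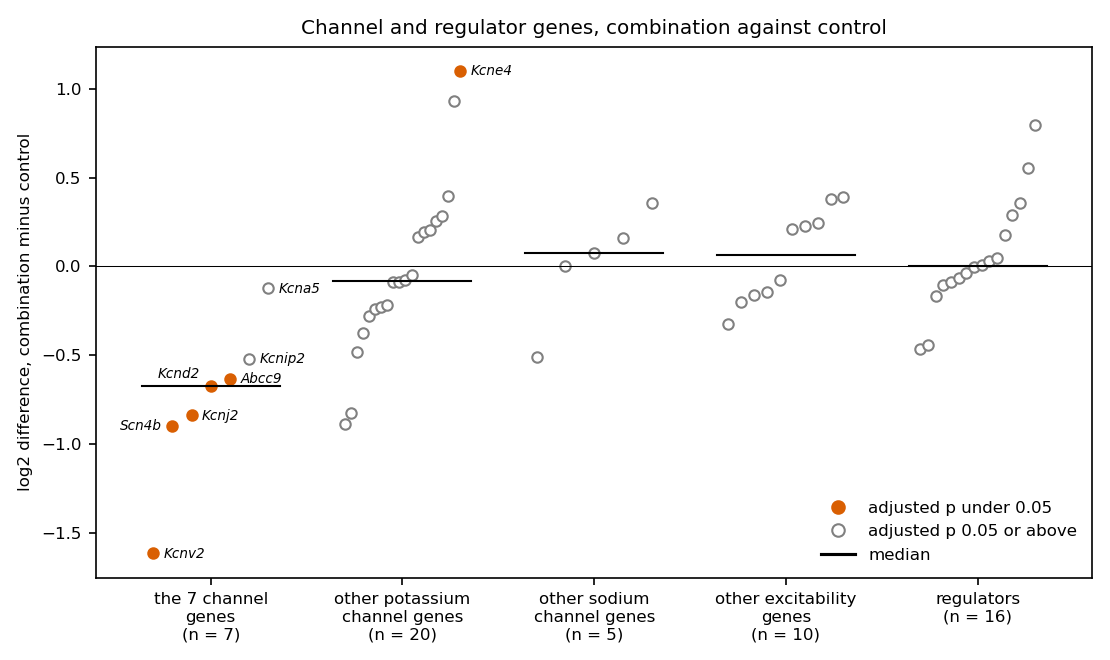
Log2 difference of the combination minus control (vertical axis) for the 7 channel genes and for 51 other channel and regulator genes on 4 lists, 1 point per gene sorted by value within each list. Filled points have a limma adjusted p under 0.05 and bars are list medians, at -0.68 for the 7 genes and between -0.08 and 0.08 for the other lists.

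Markers of the labelled tissue were read beside these results. The mean log2 level of 7 of 8 listed ventricular myocyte genes, all above background, was 13.36 to 13.48 on the control arrays and 13.29 to 13.47 on the combination arrays. Among them the troponin gene Tnni3 was lower in the combination group (-0.50, limma adjusted p = 0.0221), while the myosin light chain gene Myl2 (0.07), Myh6 (-0.17) and Ryr2 (0.18) were not called. Over 3 atrial genes, Sln, Myl4 and Myl7, the mean was 7.81 to 10.6 on the combination arrays and 7.04 to 9.78 on the control arrays. That of 7 fibroblast genes was 9.74 to 11.3 against 10.2 to 10.4, with its lowest value on combination array 4. That of all 4 smooth muscle genes, of which Tagln and Cnn1 were not above background, was 8.35 to 9.20 against 8.38 to 8.59, with Acta2 higher by 0.88 (adjusted p = 0.00444). The remaining lists gave 9.52 to 9.78 against 9.31 to 9.55 for 4 pericyte genes, 8.195 to 9.304 against 8.68 to 8.99 for 5 endothelial genes, 8.68 to 9.75 against 9.52 to 9.90 for 2 of 4 macrophage genes and 12.35 to 14.10 against 12.69 to 12.93 for 2 of 3 erythroid genes. The erythroid maximum and the endothelial minimum were both on combination array 4. The part of these shifts in the channel gene results was not tested, except that with the atrial mean as a covariate 4 of the 5 calls against control were kept and Kcnj2 was not (-0.79, adjusted p = 0.0990). With that covariate 3 of the 4 calls against L-NAME and neither call against AngII were kept, while the differences of Abcc9 from L-NAME and of Kcnd2 and Scn4b from AngII grew. Over all genes 226, 29 and 0 were called lower with it against control, L-NAME and AngII, where 259, 73 and 28 were without it. In tissue RNA, fewer cells of a type and less RNA per cell cannot be told apart.

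The genes whose log2 levels were most like those of each channel gene over the 16 arrays were found by Pearson's r, as a description. Because the arrays share the groups, r is also given within groups, from deviations from the group means. Combination array 4 enters both values and weighs on them. For Kcnv2 they were Ganc (0.956, within groups 0.884), Plekhb1 (0.947, 0.885) and Fam131a (0.941, 0.83). For Scn4b they were Fam131a (0.918, 0.775), Rgma (0.914, 0.628) and Kcnv2 itself (0.912, 0.678). For Abcc9 they were Arel1 (0.906, 0.738), Hdlbp (0.895, 0.776) and Kcnv2 (0.886, 0.760). Kcnd2 had Fitm2 (0.903, 0.550), Ldhd (0.902, 0.477) and Arel1 (0.899, 0.605). With combination array 4 left out, r within groups over the other 15 was 0.584, 0.883 and 0.187 for the 3 genes named with Kcnv2 and 0.18, 0.168 and 0.0269 for those named with Scn4b. It was 0.642, 0.771 and 0.766 for those named with Abcc9 and 0.427, 0.3 and 0.486 for those named with Kcnd2. The likeness of Scn4b to its nearest genes within groups rested on that array.

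Kcnip2 was most like Pptc7 (0.906, within groups 0.847), Fkbp4 (0.897, 0.838) and Eepd1 (0.892, 0.846). Kcna5 was most like Tmem184b (0.929, 0.940), Parp3 (0.906, 0.895) and Pdk4 (0.906, 0.940), which slows pyruvate oxidation. Kcnj2 had the weakest nearest neighbours, Slc22a5, the carnitine transporter (0.834, 0.637), Trmt2b (0.823, 0.696) and Nudt12 (0.808, 0.641). Among pairs of the 7 genes r ran from 0.312 (Kcna5 with Kcnj2) to 0.912 (Kcnv2 with Scn4b). Within groups the same pairs gave 0.247 and 0.678, and Kcna5 with Scn4b gave the highest value of a pair, 0.879. With combination array 4 left out these 3 values were -0.243, 0.0269 and 0.686, and Kcna5 had r of 0.482, 0.648 and 0.146 with Tmem184b, Parp3 and Pdk4 over 15 arrays (within groups 0.144, 0.416 and -0.00506). For the genes named with Kcnip2 r within groups stayed between 0.795 and 0.814, and for those named with Kcnj2 between 0.586 and 0.648.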

How the data were processed

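The authors deposited log2 intensities for 25697 probes on 16 arrays. Per the submitters' processing notes, GenomeStudio and lumi were used, with no version stated. The sorted deposited columns differed by at most 0.00132, so the values are quantile normalised. How background was treated and which transform gave the log2 scale is not stated in these sources, and either would change dim genes most. Another 64 per-sample columns were left out, since their names fit no label. Per the labels' protocols, RNA was extracted with Trizol and RNeasy and labelled with the Ambion MessageAmp kit.

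Probes were named from the platform annotation (23978 with 1 symbol, 1719 with none). Those above the background level on 4 arrays or more were kept, and the brightest of them stood for its gene. The 4 group means of 9118 genes were fitted with limma 3.58.1 in R 4.3.3 (12 residual and 3.145 prior degrees of freedom), with Benjamini-Hochberg adjustment over all genes, or over all kept probes where a single probe is tested. The fit was tested on simulated data. Named were all members, other channel and regulator genes called in any comparison together with 9 fixed ones (not all reported here), and for each member the 3 genes with the highest correlation. The members and lists were chosen with earlier results of these data known.

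Replicate numbers in the labels are shared between groups. Deviations from group means correlated in each of the 24 pairs with the same number (r of 0.115 to 0.452, median 0.281). The 24 pairs with other numbers within replicates 1 and 2 or 3 and 4 did so too (0.111 to 0.385, median 0.232). Between the 2 sets r was negative (median -0.258). These values show the sets, but do not settle whether the numbers pair the samples. The main fit has no term for set or number. For the combination against control it called 528 genes, the replicate block 788 and 2 sets as a factor 834. The sources used here give no slide or scan date.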

Additional observations from a re-analysis of the deposited data

Results flagged for a closer look

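Kcnv2 on combination array 4 lay at a log2 level of 7.66, against 9.10 to 9.33 on the other arrays of that group. Kcna5 lay on the same array at 8.14, against 9.86 to 10.01. The Abcc9 probe ILMN_1233056 lay on AngII array 3 at 6.53, below background, against 7.46 to 7.65. Each was flagged because the gap to the nearest array took up most of the range of its group. Of 44 groups of 4 arrays examined, 3 were flagged, and chance flags about 1 in 20 groups.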

How the results depend on the processing

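The direction of the 5 called channel genes (combination against control) was kept under all 11 alternatives and all 16 fits that left out an array. Since their combination and control ranges did not overlap, leaving out an array could not turn it. Several alternatives, such as the replicate block, leave the difference of means unchanged. Over the fits that left out an array the number called was 2 to 5 against control, 2 to 4 against L-NAME and 0 to 3 against AngII. Of all genes 107 to 273, 30 to 81 and 7 to 39 were called lower in these fits. The difference from control ran from -1.78 to -1.23 for Kcnv2, -1.02 to -0.73 for Scn4b, -0.92 to -0.72 for Kcnj2, -0.74 to -0.59 for Kcnd2, -0.74 to -0.53 for Abcc9, -0.63 to -0.39 for Kcnip2 and -0.31 to 0.32 for Kcna5. A fit of only the arrays compared, which has fewer samples, called 0 of the 7 in each comparison of the combination. Of all genes it called 26, 12 and 1 lower against control, L-NAME and AngII, so few calls were made at all. There the differences from control were as before for Kcnv2 (-1.62, adjusted p = 0.0647), Scn4b (-0.90, 0.0644), Kcnj2 (-0.84, 0.0636), Kcnd2 (-0.68, 0.0671) and Abcc9 (-0.64, 0.102). Kcnj2 also lost its call with no filter on dim probes (-0.84, adjusted p = 0.0723), with array weights (-0.68, 0.0688), with the replicate block (-0.84, 0.0538) and with atrial genes as a covariate (-0.79, 0.0990). Kcnip2 gained a call with the replicate block (-0.52, adjusted p = 0.0412) and with 2 sets of arrays as a factor (-0.52, 0.0269). The block changed no other call of a channel gene. Kcna5 turned to 0.26 against control and 0.15 against L-NAME with array weights, and was 0.36 within replicates 1 and 2 and -0.61 within replicates 3 and 4. Against AngII the number called was 1 with no filter, 4 with a trended robust variance, 4 with array weights and 0 with the atrial covariate (Scn4b -0.98, adjusted p = 0.0583, and Kcnd2 -0.84, adjusted p = 0.0857). Over all genes 21, 79, 124 and 0 were called lower under these settings, in that order. For the interaction the number of channel genes called was 1 with array weights or 2 sets as a factor. For AngII against control Kcnip2 turned to 0.0507 with array weights and 0.00954 with the covariate.

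With an array left out, signs also turned for uncalled values near 0: Kcna5 against L-NAME (-0.38 to 0.25), against AngII (-0.60 to 0.0212) and for L-NAME against control (-0.0105 to 0.13), Kcnj2 for L-NAME against control (-0.28 to 0.0884), and Kcnip2 (-0.11 to 0.11) and Abcc9 (-0.15 to 0.0321) for AngII against control. Over all genes the 528 calls of the combination against control became 82 with only the arrays compared, 834 with 2 sets as a factor and 1106 with array weights, and the 0 calls of AngII against control and of the interaction became up to 177 and 179. The causes of these changes were not tested. Cyclic loess and centring moved array medians by at most 0.0320 and 0.00356. Signal over background limits Kcnd2 and the third Abcc9 probe, which lay below background on 2 and 4 of the combination arrays.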
